A study of Mus musculus with 8 samples.

Results

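Type 2 conventional dendritic cells (cDC2) are 1 of the main kinds of dendritic cell in the mouse spleen, and 10 genes known from these cells are described here: Sirpa, Clec4a4, Esam, Notch2, Dtx1, Clec10a, Mgl2, Klf4, Cd4 and Zbtb46. The genes were picked by symbol from knowledge of the cell type, and all 10 are present among the 13786 genes of the count table. RNA was sequenced from CD11c-positive splenocytes of 8 female mice aged 7 weeks, 4 of the control strain C57BL/6 and 4 of the lupus-prone strain B6.SLE123, neither of them treated. B6.SLE123 is a congenic strain that carries lupus susceptibility intervals on a C57BL/6 background, so a strain difference cannot be assigned to any single gene of those intervals. The mice of both strains came from The Jackson Laboratory, and the strain of each was taken from its sample name, because the strain number in the genotype labels rises from mouse to mouse. At this age the comparison asks how the cells differ before overt disease.

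cDC2 take up antigen and present it mainly to CD4+ T cells. They carry the inhibitory receptor encoded by Sirpa, which sets them apart from the cross-presenting type 1 cells (cDC1). In the spleen a large fraction of them depends on the receptor Notch2, which is switched on by Notch ligands on stromal cells near the marginal zone; these cells carry Esam and the lectin receptor encoded by Clec4a4, and many carry CD4. A further fraction, which needs the transcription factor Klf4, lies outside the Notch2-dependent one. CD11c, the product of Itgax, is also carried by some macrophages, monocytes and B cells, so its use for isolation leaves room for other cells.

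Each C57BL/6 mouse had 25761789 to 32931045 counts in all, and each B6.SLE123 mouse 25563070 to 37367094. Levels are given as CPM, the count scaled to the size of the library by TMM, and, where genes are compared with each other, as FPKM, which divides by exon length as well. Strain differences are log2 fold changes of B6.SLE123 over C57BL/6, negative where the lupus-prone strain was lower. A gene was called where edgeR's quasi-likelihood test gave it an adjusted p below 0.05 (Benjamini-Hochberg, 13786 genes). Markers of dendritic cells were abundant: Itgax was at 1329 ± 77.9 CPM in C57BL/6 mice and 1543 ± 93.4 CPM in B6.SLE123 mice (SD, n = 4), and Flt3, the receptor for a dendritic cell growth factor, was at 466 ± 23.9 CPM in C57BL/6 mice and 613 ± 12.8 CPM in B6.SLE123 mice (SD, n = 4). Red pulp macrophage genes were abundant as well, with summed levels of 11226 to 14234 CPM over 10 genes in C57BL/6 mice and 1596 to 3167 CPM in B6.SLE123 mice. The labelled cell type, dendritic cells, therefore covers preparations that also held macrophage RNA, in amounts that differed between the strains.

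The 10 genes did not move together. Sirpa fell by 0.91 on the log2 scale and Klf4 by 0.36, whereas Zbtb46, Dtx1 and Notch2 rose by 0.32, 0.31 and 0.13. Clec4a4, Esam, Clec10a, Mgl2 and Cd4 did not pass the test. Of the 10 genes 5 were called, beside 53.4% of all genes tested, so the share of cDC2 genes that was called was close to the background. The 3 called higher stood beside 26.7% of all genes called higher, and the 2 called lower beside 26.6% called lower. In bulk RNA, fewer cells of a type and less RNA per cell cannot be told apart.

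The differences were small for most of the genes. None of the 10 was called with a change of more than 2-fold by edgeR's quasi-likelihood test, by DESeq2 or by limma-voom. By edgeR, 11.1% of all genes were called with such a change at an adjusted p below 0.05. The largest change of the 10, that of Sirpa at -0.91, was below 2-fold, so the count was 0 at any p threshold. The median log2 fold change of the 10 was -0.02 and that of all genes -0.002. The median size of the change, without its sign, was 0.31 for the 10 genes and 0.25 for all genes, and 4 of the 10 lay below the latter. Only Sirpa, Notch2 and Zbtb46 had no overlap between the 4 mice of each strain, that is 3 of 10 beside 48.9% of all genes. The number called depended on single mice: it was 8 without B6.SLE123 replicate 1, and 4 without C57BL/6 replicate 1, without C57BL/6 replicate 2 or without B6.SLE123 replicate 2. The share of all genes called was 50.1% in the first of these fits and 48.2%, 49.3% and 48.3% in the others.

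**Figure D1:**
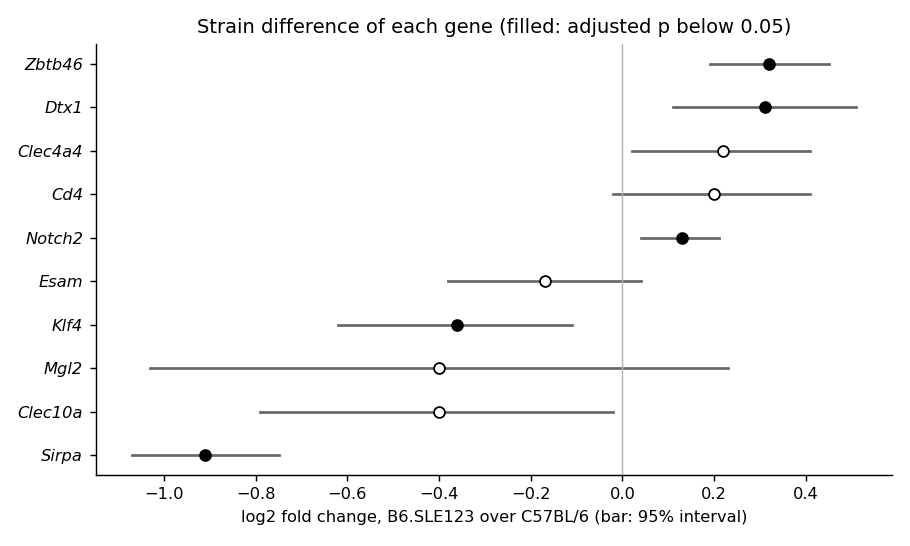
Log2 fold change of each of the 10 genes, B6.SLE123 over C57BL/6 (x axis), ordered by its value, with its 95% interval as a bar and filled points for genes with an adjusted p below 0.05. Sirpa, at -0.91, lies apart from the other genes, which lie between -0.40 and 0.32.

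Per exon length, the genes spanned a wide range of levels. In C57BL/6 mice Sirpa was the highest at 363 ± 17.4 FPKM (SD, n = 4), a level that exceeds 99.2% of genes. It was followed by Clec4a4 at 78.3 ± 8.93 FPKM, Cd4 at 64 ± 6.01 FPKM and Dtx1 at 60.1 ± 5.26 FPKM, of which Cd4 and Dtx1 lay within each other's spread. Notch2 at 40.4 ± 1.18 FPKM and Zbtb46 at 24 ± 0.374 FPKM came next. Klf4 at 18.5 ± 2.08 FPKM and Esam at 16.4 ± 2.34 FPKM lay within each other's spread, and Clec10a at 4.41 ± 0.525 FPKM and Mgl2 at 1.56 ± 0.492 FPKM were the lowest, with Mgl2 above only 26.9% of genes. In B6.SLE123 mice Sirpa was still the highest at 194 ± 20.7 FPKM, Clec4a4 was at 91.1 ± 9.52 FPKM and Mgl2 was the lowest at 1.18 ± 0.479 FPKM (SD, n = 4).

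Sirpa encodes SIRP alpha, an inhibitory receptor that binds CD47 and is carried by cDC2, macrophages and monocytes but little by cDC1. It lies on chromosome 2 of mm10, from 129592835 to 129632228 on the plus strand. Its level was 1756, 1691, 1895 and 1794 CPM in the C57BL/6 mice (replicates 1 to 4) and 863, 881, 975 and 1084 CPM in the B6.SLE123 mice. Every B6.SLE123 mouse lay far below every C57BL/6 mouse, and the spread within a strain was small beside the gap. The log2 fold change was -0.91 (95% interval -1.07 to -0.75, standard error 0.07, adjusted p = 2.52e-06), which is 1.88-fold lower, and 14.2% of all genes had a larger change. Without each mouse in turn it lay between -0.99 and -0.87.

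The fall of Sirpa stood beside a fall of red pulp macrophage genes, in which all 10 listed genes were called lower at a median log2 fold change of -2.42. Vcam1, an adhesion molecule of these cells, fell by 2.45 and Slc40a1, the iron exporter, by 2.68. Csf1r, the receptor for the growth factor of macrophages, was at 2338, 2043, 2606 and 2310.2 CPM in C57BL/6 mice and 491, 335, 616 and 617 CPM in B6.SLE123 mice. Within the B6.SLE123 strain, replicates 3 and 4 had the higher levels of both Csf1r and Sirpa, and replicates 1 and 2 the lower. No defining macrophage marker was at 0 in any mouse of either strain. The part of macrophage RNA in the Sirpa difference was not tested. The most abundant listed relative of Sirpa, Sirpb1a, was at 133 ± 10.9 CPM in C57BL/6 mice and 122 ± 16.2 CPM in B6.SLE123 mice (SD, n = 4) and was not called (log2 fold change -0.13, adjusted p = 0.248 by edgeR's quasi-likelihood test), whereas Sirpb1b and Sirpb1c fell by 0.51 and 0.56 (adjusted p = 0.000675 and 0.00234 by the same test). Sirpb1a was called lower, at -0.22, without B6.SLE123 replicate 4 (adjusted p = 0.0429). No stretch of 50 exonic bases of Sirpa occurs in another gene.

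Clec4a4 encodes a lectin receptor, known as DCIR2, that is used as a surface mark of the Notch2-dependent cDC2 of the spleen. It lies on chromosome 6 of mm10, from 122990367 to 123024105 on the plus strand. Its level was 55.7, 59.2, 57.4 and 71.0 CPM in the C57BL/6 mice and 62.5, 68.3, 72.0 and 80.1 CPM in the B6.SLE123 mice. The strains overlapped, since C57BL/6 replicate 4 was as high as the middle of the B6.SLE123 mice. The strain difference was 0.22 (95% interval 0.02 to 0.41, standard error 0.09, adjusted p = 0.0596) on the log2 scale and did not pass the test. It passed without C57BL/6 replicate 4 (adjusted p = 0.0115 by edgeR's quasi-likelihood test), without B6.SLE123 replicate 1 (0.0268), with upper-quartile factors (0.0426) and with DESeq2 (0.0452).

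Clec4a4 has close neighbours of the same family, and 15.7% of its stretches of 50 exonic bases also occur in Clec4a2. The longest coding stretch that both genes hold without a difference is printed because reads inside it cannot be assigned to either gene. It covers bases 75 to 237 of the 708 coding bases of Clec4a4, spread over 3 exons between chr6:122990441-123004046 on the plus strand of mm10.
Clec4a4 and Clec4a2, 163 bases: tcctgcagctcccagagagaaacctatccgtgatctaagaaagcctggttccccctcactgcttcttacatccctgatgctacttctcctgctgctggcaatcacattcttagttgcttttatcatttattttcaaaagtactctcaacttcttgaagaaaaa
Clec4a2 itself was at 74.4 ± 5.77 CPM in C57BL/6 mice and 35.8 ± 4.25 CPM in B6.SLE123 mice (SD, n = 4), and it fell by 1.06 on the log2 scale (adjusted p = 2.47e-06 by edgeR's quasi-likelihood test). Of 10 measured relatives of the lectin and SIRP genes, 8 were called lower and 1 higher.

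Esam encodes an adhesion molecule of endothelium and platelets that also marks the Notch2-dependent cDC2. The gene is on chromosome 9 of mm10, from 37528078 to 37538319 on the plus strand. Esam was at 41.5, 46.2, 43.4 and 56.6 CPM in the C57BL/6 mice and at 38.8, 42.7, 38.9 and 46.5 CPM in the B6.SLE123 mice. C57BL/6 replicate 4 was the highest, and the other mice of both strains overlapped. Its log2 fold change of -0.17 (95% interval -0.38 to 0.04, standard error 0.10, adjusted p = 0.15) was small beside this spread and did not pass the test. Of the 7 endothelial genes 2 were called higher and 2 lower; the most abundant, Pecam1, which leukocytes also express, fell by 0.68, Eng fell by 0.76 and Kdr rose by 0.87. The platelet list had summed levels of 30.8 to 37.7 CPM in C57BL/6 mice and 23.7 to 31.9 CPM in B6.SLE123 mice over the 4 genes measured of 6, of which Itgb3 was called lower, at -0.29 with 5 of 8 leave-one-out fits losing the call, and Itga2b and Gp9 were not called, at 0.22 and 0.19.

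Notch2 encodes the receptor on which Esam-positive cDC2 and marginal zone B cells depend. It lies on chromosome 3 of mm10, from 98013527 to 98150361 on the plus strand. The levels of Notch2 were 434, 445, 446 and 419 CPM in the C57BL/6 mice and 475, 481, 473 and 474 CPM in the B6.SLE123 mice. The B6.SLE123 mice were nearly equal to each other and all lay above the C57BL/6 mice, so a small difference stood out from a smaller spread. The log2 fold change was 0.13 (95% interval 0.04 to 0.21, standard error 0.04, adjusted p = 0.015), which is 1.09-fold. The call was lost without C57BL/6 replicate 4 (adjusted p = 0.0538 by edgeR's quasi-likelihood test) and without B6.SLE123 replicate 2 (0.0529). Of its stretches of 50 exonic bases, 3.76% also belong to Gm42820, an unclassified transcript annotated inside the gene on the same strand.

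Dtx1 encodes Deltex, a ubiquitin ligase of the Notch pathway whose gene is itself a Notch target, and it is also expressed by marginal zone B cells. It lies on chromosome 5 of mm10, from 120680202 to 120711927 on the minus strand. Dtx1 levels were 290.0, 324, 301 and 353 CPM in the C57BL/6 mice and 339.9, 367, 403 and 459 CPM in the B6.SLE123 mice. The highest C57BL/6 mouse, replicate 4, lay above the lowest B6.SLE123 mouse, replicate 1, and the other mice were separated. On the log2 scale the difference was 0.31 (95% interval 0.11 to 0.51, standard error 0.09, adjusted p = 0.0145), which is 1.24-fold, and the call held without any 1 mouse, with values between 0.21 and 0.37.

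Marginal zone B cell genes did not rise beside Notch2 and Dtx1. Of 5 such genes, 4 were called lower and 1 higher, the median log2 fold change being -0.70, with summed levels of 341 to 366 CPM in C57BL/6 mice and 274 to 304 CPM in B6.SLE123 mice. Cr2, a complement receptor of these cells, fell by 0.70 and Cd1d1, a lipid-presenting molecule, by 0.38, whereas Cd9, a tetraspanin, rose by 0.47. Of 9 general B cell genes, 6 were called lower and 1 higher, with a median of -0.56: Cd22 rose by 0.34 and Ms4a1 was at -0.09 without a call. The part of B cell RNA in the values of Notch2 and Dtx1 was not tested.

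Clec10a and Mgl2 encode the galactose-binding lectins CD301a and CD301b, marks of cDC2 and of macrophages that are best known from the skin. Both genes lie on the plus strand of chromosome 11 in mm10, Mgl2 from 70130329 to 70137550 and Clec10a from 70156197 to 70170834. The level of Clec10a was 14.6, 11.3, 11.8 and 13.5 CPM in the C57BL/6 mice and 12.6, 6.77, 11.2 and 8.15 CPM in the B6.SLE123 mice. B6.SLE123 replicates 2 and 4 were low, and the other 2 lay within or near the C57BL/6 range. Its log2 fold change was -0.40 (95% interval -0.79 to -0.02, standard error 0.17, adjusted p = 0.0736). Mgl2 was at 3.82, 2.42, 2.38 and 4.44 CPM in the C57BL/6 mice and 3.96, 1.83, 2.22 and 1.89 CPM in the B6.SLE123 mice. Its strains overlapped widely, with 48 to 134 counts per mouse, and the log2 fold change was -0.40 (95% interval -1.03 to 0.23, standard error 0.29, adjusted p = 0.264). Neither gene passed the test on all mice, but both did without B6.SLE123 replicate 1, at -0.56 for Clec10a and -0.72 for Mgl2 (adjusted p = 0.0179 and 0.0334 by edgeR's quasi-likelihood test), and Clec10a did with DESeq2 (0.0463).

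The 2 lectin genes share parts of their sequence, and reads from those parts cannot be assigned to either gene. Of the stretches of 50 exonic bases, 13.1% of those of Mgl2 and 9.02% of those of Clec10a occur in another gene, mostly in each other. The longest coding stretch without a difference between them is printed to show how far reads of one gene can be those of the other. It covers bases 502 to 684 of the 924 coding bases of Clec10a, over 3 exons between chr11:70169822-70170189 on the plus strand of mm10.
Clec10a and Mgl2, 183 bases: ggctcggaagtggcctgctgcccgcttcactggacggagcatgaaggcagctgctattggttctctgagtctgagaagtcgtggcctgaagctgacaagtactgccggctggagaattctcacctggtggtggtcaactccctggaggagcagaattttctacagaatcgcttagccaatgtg
B6.SLE123 replicate 1 was the highest mouse of its strain for both genes, and replicate 2 the lowest.

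Klf4 encodes a zinc finger transcription factor that a part of the cDC2 needs and that monocytes also express. It is on chromosome 4 of mm10, from 55527143 to 55532466 on the minus strand. Klf4 was at 60.5, 62.4, 54.7 and 48.4 CPM in the C57BL/6 mice and 50.9, 33.8, 45.2 and 45.7 CPM in the B6.SLE123 mice. C57BL/6 replicate 4 lay below the highest B6.SLE123 mouse, replicate 1, and the other mice were separated. The log2 fold change was -0.36 (95% interval -0.62 to -0.11, standard error 0.12, adjusted p = 0.0214), which is 1.29-fold lower. The call was lost without C57BL/6 replicate 1 (adjusted p = 0.0586 by edgeR's quasi-likelihood test) and without C57BL/6 replicate 2 (0.0617).

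Other lists of genes are set beside Klf4 here. Of 14 immediate early genes, which answer quickly to stimulation and to cell handling, 9 were called lower and 1 higher, with a median log2 fold change of -0.80: Zfp36 fell by 1.27, Nr4a1 by 0.88 and Junb by 0.34. Of 8 monocyte genes, 3 were called lower and none higher, that is 37.5% called beside 53.4% of all genes, with a median of -0.11. Their summed levels were 527 to 637 CPM in C57BL/6 mice and 282 to 404 CPM in B6.SLE123 mice. Treml4 was the largest part of these sums, at 335 ± 40.2 CPM in C57BL/6 mice and 161 ± 13.4 CPM in B6.SLE123 mice (SD, n = 4). The monocyte genes Treml4 and Cd300e fell by 1.05 and 1.13, and Ace was at -0.12 without a call. Without B6.SLE123 replicate 1, its highest mouse in that strain, Ace was called lower at -0.49 (adjusted p = 0.0124). The part of these groups in the fall of Klf4 was not tested.

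Cd4 encodes the co-receptor of helper T cells, which in the mouse is also carried by many splenic cDC2. It lies on chromosome 6 of mm10, from 124864692 to 124888221 on the minus strand. Cd4 levels were 240.3, 272, 235 and 285 CPM in the C57BL/6 mice and 290.2, 299, 244 and 348 CPM in the B6.SLE123 mice. B6.SLE123 replicate 3 lay among the C57BL/6 mice and the other 3 above them. The strain difference was 0.20 (95% interval -0.02 to 0.41, standard error 0.10, adjusted p = 0.117) and did not pass the test. Without B6.SLE123 replicate 3 it did (adjusted p = 0.0184).

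The listed T cell genes had low levels, with overlapping sums in the strains. The part of T cell RNA in the values of Cd4 was not tested. The 9 T cell genes summed to between 56.3 and 70.7 CPM in C57BL/6 mice and between 55.4 and 67.9 CPM in B6.SLE123 mice, less in every mouse than Cd4 alone. Cd3e, a chain of the T cell receptor complex, was at 5.03, 4.68, 3.84 and 2.95 CPM in the C57BL/6 mice and 3.89, 1.91, 3.40 and 2.52 CPM in the B6.SLE123 mice. Cd3e was called lower only without C57BL/6 replicate 4 or without B6.SLE123 replicate 1 (adjusted p = 0.0469 and 0.0417). Of the 9 genes 1 was called higher and 2 lower: Cd5, which some B cells also express, rose by 0.52, while Lck fell by 0.37 and Thy1 was called lower at 7.25 ± 2.44 CPM in C57BL/6 mice and 3.67 ± 1.01 CPM in B6.SLE123 mice (SD, n = 4).

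Zbtb46 encodes a transcription factor that marks conventional dendritic cells of both types, and it is absent from monocytes and most macrophages. It lies on chromosome 2 of mm10, from 181387762 to 181459426 on the minus strand, and a small nuclear RNA gene, Gm22708, is annotated inside it on the same strand. The level of Zbtb46 was 207, 207, 202 and 201 CPM in the C57BL/6 mice and 229, 285, 254 and 249.9 CPM in the B6.SLE123 mice. The C57BL/6 mice were nearly equal, and every B6.SLE123 mouse lay above them. Zbtb46 had a log2 fold change of 0.32 (95% interval 0.19 to 0.45, standard error 0.06, adjusted p = 0.000981), which is 1.25-fold, and it lay between 0.25 and 0.36 without each mouse in turn.

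**Figure D2:**
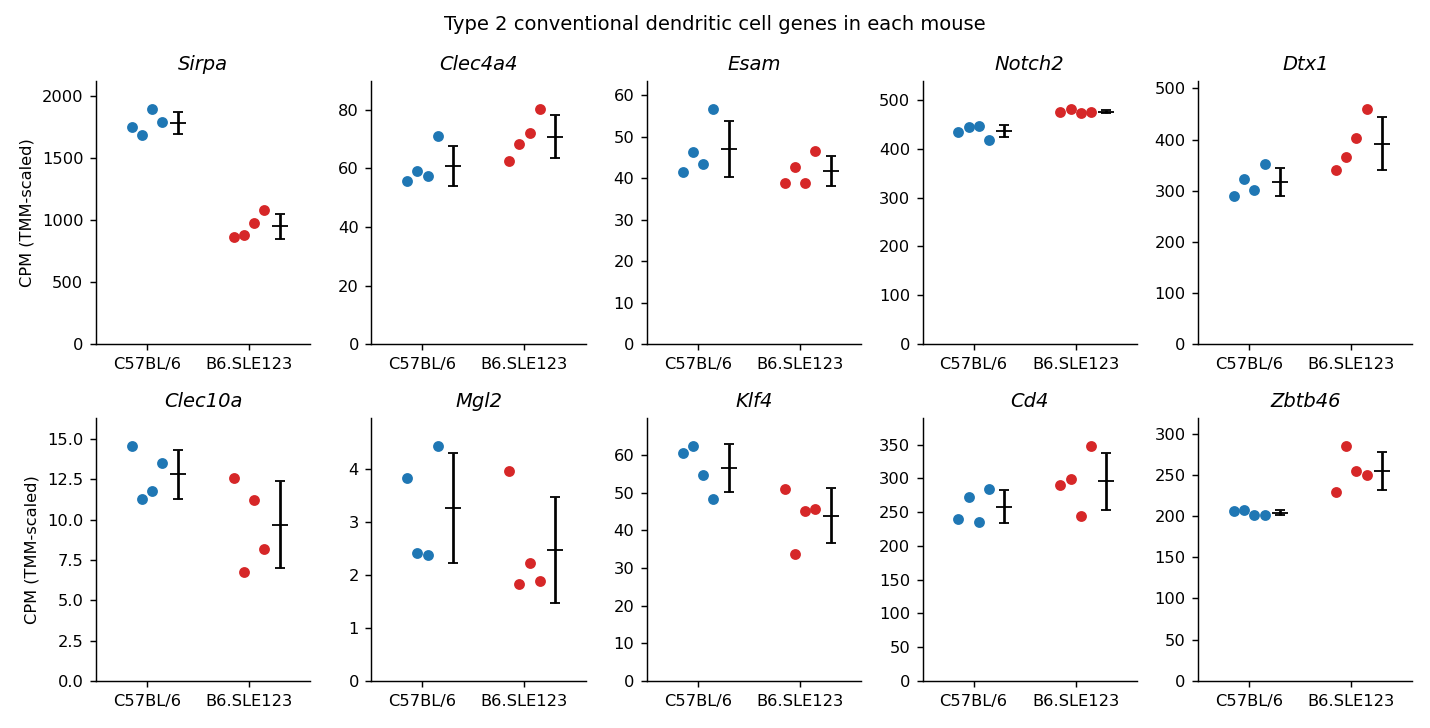
Level of each gene in each mouse, in TMM-scaled CPM on a linear axis from 0 (y axis), for 4 C57BL/6 mice (blue) and 4 B6.SLE123 mice (red), with black bars for the mean ± SD. Sirpa, Notch2 and Zbtb46 show no overlap between the strains, and the other 7 genes overlap.

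The mice at the ends of the ranges were not spread evenly over the genes. B6.SLE123 replicate 4 was the highest of its strain in 5 of the 10 genes, namely Sirpa, Clec4a4, Esam, Dtx1 and Cd4, and the lowest in none. C57BL/6 replicate 4 was the highest of its strain in Clec4a4, Esam, Dtx1, Mgl2 and Cd4. B6.SLE123 replicate 1 was the lowest of its strain in 5 genes, Sirpa, Clec4a4, Esam, Dtx1 and Zbtb46, and the highest in 3, Clec10a, Mgl2 and Klf4. B6.SLE123 replicate 2 was the lowest for Clec10a, Mgl2 and Klf4.

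Genes of conventional dendritic cells in general rose with Zbtb46. All 9 listed genes were called higher, with a median log2 fold change of 0.28: Cd74, the invariant chain of antigen presentation, rose by 0.25, and the class II chains H2-Ab1 and H2-Aa by 0.28 and 0.26. Of 11 cDC1 genes, 9 were called higher and 1 lower, with a median of 0.82, and their summed levels were 3998 to 4603 CPM in C57BL/6 mice and 6081 to 7966 CPM in B6.SLE123 mice. Wdfy4, which cDC1 need for cross-presentation, rose by 0.85, Naaa by 1.06 and Irf8, the factor that directs cDC1 development, by 0.48. Plasmacytoid dendritic cell genes were divided, with 2 of 8 called higher and 3 lower: Siglech rose by 0.45, and Tcf4 and Bst2 were not called, at -0.15 and 0.13. In the cDC2 genes described here the median was -0.02.

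**Figure D3:**
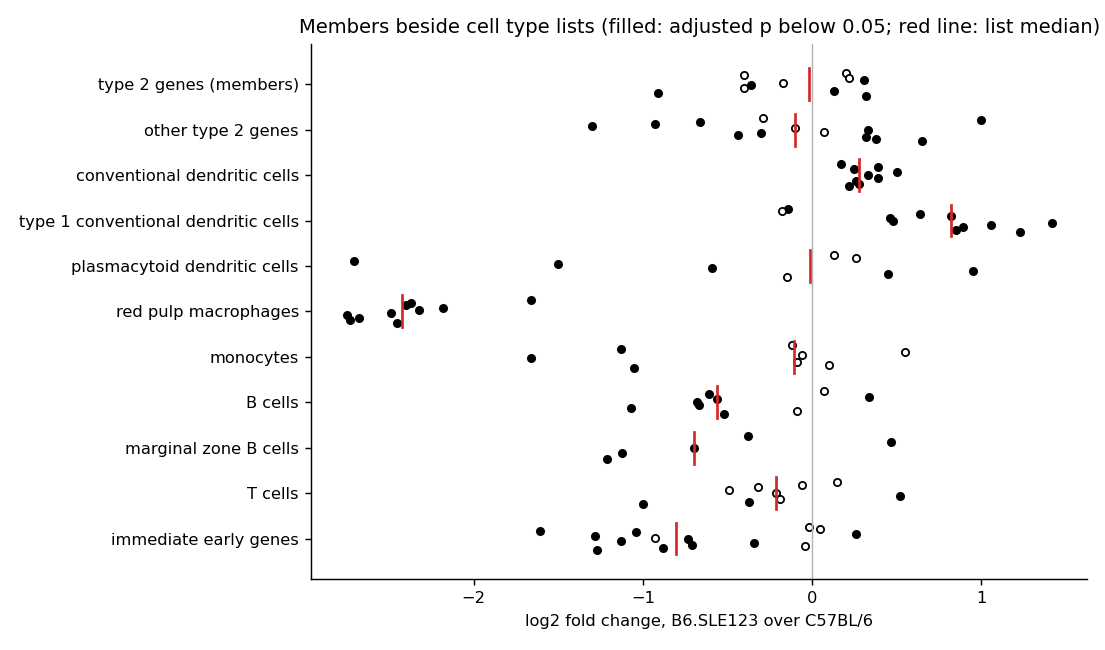
Log2 fold change of single genes, B6.SLE123 over C57BL/6 (x axis), for the 10 cDC2 genes and for lists of other cDC2 genes and of other cell types (y axis), with filled points for an adjusted p below 0.05 and a red line for each list's median. The cDC2 genes straddle 0, the cDC1 genes lie mostly above it with a median of 0.82, and the red pulp macrophage genes lie below it with a median of -2.42.

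Set against Zbtb46 in the same mouse, none of the 9 other genes was higher in B6.SLE123 mice on average. Zbtb46 rose the most of the cDC2 genes, by 0.32, so relative to it the others were bound to be lower on average. For Sirpa the log2 ratio to Zbtb46 was 3.09, 3.03, 3.23 and 3.16 in the C57BL/6 mice and 1.91, 1.63, 1.94 and 2.12 in the B6.SLE123 mice, a difference of -1.23. Esam had ratios of -2.31, -2.16, -2.21 and -1.83 in the C57BL/6 mice and -2.56, -2.74, -2.71 and -2.43 in the B6.SLE123 mice, a difference of -0.48. Both genes were separated between the strains, Esam without having passed the test on its own level.

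Klf4 and Notch2 were separated as well. The ratio of Klf4 was -1.77, -1.73, -1.88 and -2.05 in the C57BL/6 mice and -2.17, -3.07, -2.49 and -2.45 in the B6.SLE123 mice, a difference of -0.69. That of Notch2 was 1.07, 1.10, 1.14 and 1.06 and 1.05, 0.75, 0.90 and 0.92 in the same order, a difference of -0.19. Notch2 was higher in B6.SLE123 mice by its own level but rose less than Zbtb46. These 4 of 9 genes were lower in every B6.SLE123 mouse, beside 49.7% of all genes on the same scale, a share near the background. For Clec4a4, Dtx1 and Cd4 the differences were -0.10, -0.01 and -0.12, and for Clec10a and Mgl2 -0.75 and -0.72, each with overlap between the strains.

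Flt3 rose by 0.39, more than any of the cDC2 genes, so relative to it they were again bound to be lower on average. With Flt3 in place of Zbtb46, Clec10a joined the separated genes and the count was 5. The share of all genes was not computed with Flt3 as reference, so this count has no background beside it. The differences were then -1.31 for Sirpa, -0.56 for Esam, -0.27 for Notch2, -0.83 for Clec10a and -0.77 for Klf4. With Zbtb46 as reference the count was 6 without B6.SLE123 replicate 1, where the share of all genes was not computed either. Zbtb46 itself differed by -0.08 from Flt3, with overlap.

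**Figure D4:**
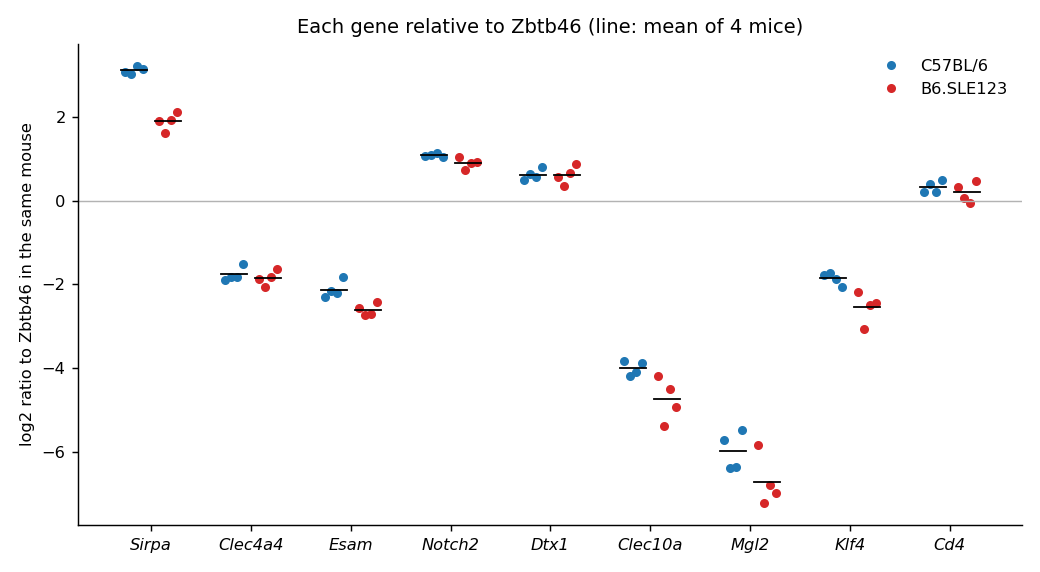
Log2 ratio of each gene to Zbtb46 within each mouse (y axis), from TMM-scaled CPM with a prior count of 2, for 4 C57BL/6 mice (blue) and 4 B6.SLE123 mice (red), with a black line for the mean of each strain. The strain mean of Sirpa drops from 3.13 to 1.90, whereas Dtx1 stays at 0.63 and 0.62.

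The Notch pathway around Notch2 changed in both directions. Notch receptors are cut when a ligand on a neighbouring cell binds, first by ADAM proteases and then by gamma-secretase, and the freed part joins Rbpj and Maml proteins in the nucleus to switch on target genes. Of 42 listed genes of this pathway other than Notch2 and Dtx1, 40 were measured, and Dll3 and Hey2 were not among the genes of the table. Of these 40, 11 were called higher and 17 lower, that is 70.0% called beside 53.4% of all genes, with a median log2 fold change of -0.13. Their summed level was 2476 to 2574 CPM in C57BL/6 mice and 2460 to 2554 CPM in B6.SLE123 mice. Without each mouse in turn between 21 and 26 genes were called, beside 47.1% to 50.9% of all genes.

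All 4 measured ligand genes were called. Jag2 was at 6.85, 6.45, 7.56 and 5.30 CPM in the C57BL/6 mice and 15.9, 28.4, 14.1 and 21.6 CPM in the B6.SLE123 mice, a rise of 1.61 on the log2 scale (standard error 0.21, adjusted p = 8.43e-05 by edgeR's quasi-likelihood test). Every B6.SLE123 mouse had more Jag2 than every C57BL/6 mouse. Dll4 rose by 1.11 and Jag1 by 0.18, while Dll1, the ligand tied to splenic Notch2 signals, fell by 0.97 and was scarce, at 1.57 ± 0.318 CPM in C57BL/6 mice and 0.792 ± 0.294 CPM in B6.SLE123 mice (SD, n = 4). Jag1 lost its call without B6.SLE123 replicate 4 (0.058).

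Of the other receptors, Notch4 rose and Notch1 fell. Notch4 was at 62.0, 45.1, 62.5 and 53.8 CPM in the C57BL/6 mice and 108, 144, 119 and 79.2 CPM in the B6.SLE123 mice, without overlap, and its log2 fold change was 1.01 (95% interval 0.66 to 1.37, standard error 0.16, adjusted p = 0.000321). Notch1 was at 23.3, 20.6, 19.98 and 18.0 CPM and 18.7, 15.9, 18.8 and 14.7 CPM in the same order, with overlap and a log2 fold change of -0.26 (95% interval -0.48 to -0.04, standard error 0.10, adjusted p = 0.0441). The call did not hold in 5 of 8 leave-one-out fits, without C57BL/6 replicates 1, 2 or 3 or B6.SLE123 replicates 2 or 4, at adjusted p values of up to 0.131.

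Genes of receptor cleavage were called mostly lower, 5 of 9, with 1 higher. The 5 are all parts of gamma-secretase: Psen2 fell by 1.11, Aph1b by 0.95, Psenen by 0.71, Ncstn by 0.47 and Aph1c by 0.37. Ncstn, the most abundant of the 5, was at 161, 157, 166 and 171 CPM in the C57BL/6 mice and 116, 115, 118 and 126 CPM in the B6.SLE123 mice, with the strains well apart. Gamma-secretase also cuts many other membrane proteins and is made by most cells.

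Among 5 genes whose products add sugars to Notch receptors, the fringe genes Lfng, Mfng and Rfng fell by 0.24, 0.13 and 0.18, and Poglut1 rose by 0.29. In the nuclear complex, Rbpj, the DNA-binding partner of the receptors, was at 137, 139, 133 and 128 CPM in the C57BL/6 mice and 196, 211, 169.9 and 198 CPM in the B6.SLE123 mice. All B6.SLE123 mice were above all C57BL/6 mice, and the log2 fold change was 0.53 (95% interval 0.39 to 0.67, standard error 0.06, adjusted p = 3.96e-05). Spen and Snw1 rose by 0.17 and 0.16, and the co-activators Maml3 and Maml2 fell by 0.60 and 0.33.

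Of 5 measured target genes, 2 were called lower and none higher. Hes1, a repressor switched on by Notch in many cells, was at 48.8, 47.8, 46.6 and 50.2 CPM in the C57BL/6 mice and 30.5, 29.4, 31.8 and 29.4 CPM in the B6.SLE123 mice. The strains were far apart and the spread within each was small, with a log2 fold change of -0.67 (95% interval -0.78 to -0.57, standard error 0.05, adjusted p = 1.04e-06). Hey1 was at 1.17, 1.54, 1.31 and 1.29 CPM and 0.316, 0.188, 0.296 and 0.433 CPM in the same order, from 7 to 43 counts per mouse, with a log2 fold change of -2.13 (95% interval -2.70 to -1.56, standard error 0.26, adjusted p = 5.07e-05). Hes1 and Hey1 thus moved in the direction opposite to Dtx1, which is a target as well. Of 8 modulators, Numb and Dtx2 rose by 0.24 and 0.18, and Numbl, Dtx4 and Dtx3 fell by 0.40, 0.36 and 0.21. Several of these calls were close to the threshold: those of Lfng, Mfng, Rfng, Spen, Numbl, Dtx4 and Dtx3 were each lost in 3 to 7 of 8 leave-one-out fits, every mouse being among those left out, with adjusted p values of up to 0.11.

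**Figure D5:**
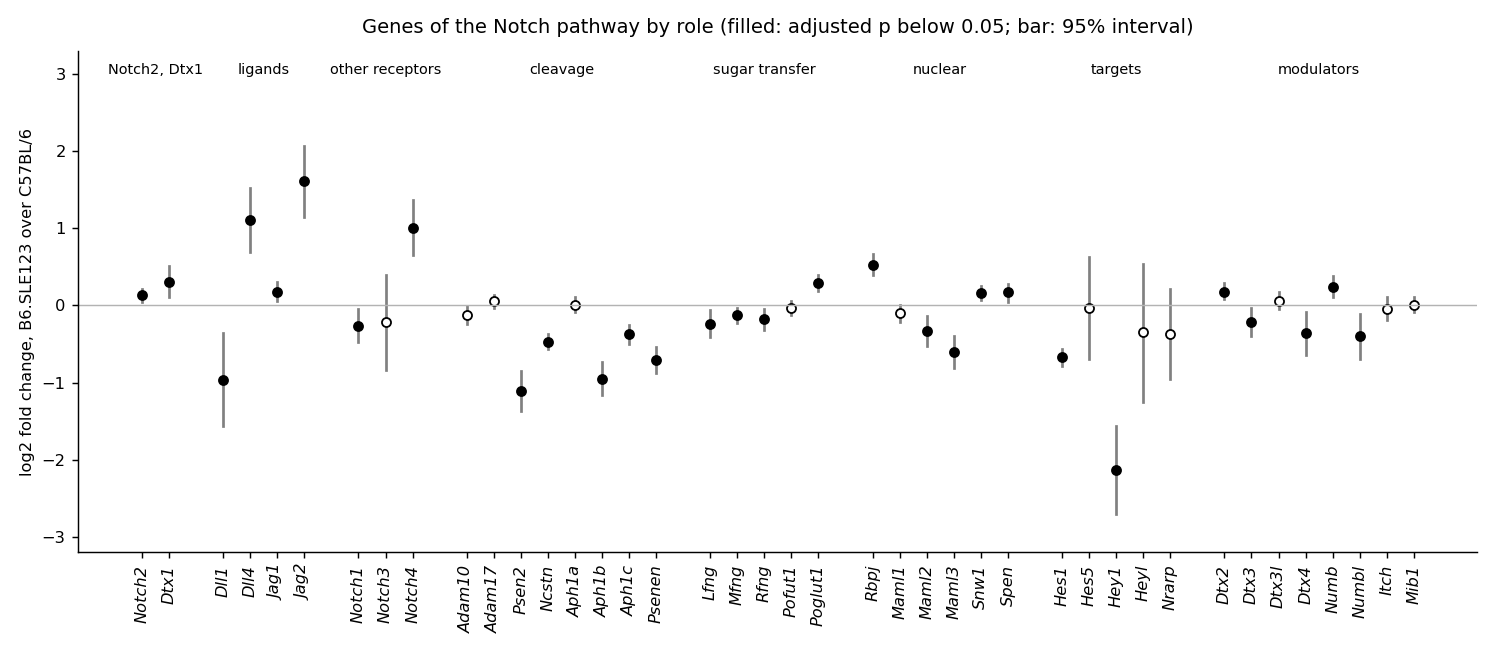
Log2 fold change, B6.SLE123 over C57BL/6 (y axis), of Notch2, Dtx1 and other genes of the Notch pathway, grouped by role along the x axis, with 95% intervals as bars and filled points for an adjusted p below 0.05. Jag2 at 1.61, Dll4 at 1.11 and Notch4 at 1.01 are the highest, and Hey1 at -2.13 is the lowest.

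Other genes tied to cDC2 were divided in the same manner. Of 13 such genes, 5 were called higher and 5 lower, that is 76.9% called beside 53.4% of all genes, with a median log2 fold change of -0.10. The 3 most abundant were Relb, a factor of the NF-kB family that Notch2-dependent cells need, which rose by 0.32, Cd300a, an inhibitory receptor of myeloid cells, which fell by 0.93, and Runx3, a transcription factor, which rose by 0.38. Without each mouse in turn between 10 and 11 were called, beside 47.1% to 50.9% of all genes.

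Within this list Clec12a fell the most and Ccr6 rose the most. Esam and Clec4a4, which mark the Notch2-dependent kind, were not called, at -0.17 and 0.22. Clec12a, a lectin receptor of the cDC2 without Esam and of monocytes, was at 159.6, 145, 172 and 161 CPM in the C57BL/6 mice and 71.1, 57.2, 65.9 and 65.3 CPM in the B6.SLE123 mice. The strains were well apart, with a log2 fold change of -1.30 (95% interval -1.45 to -1.14, standard error 0.07, adjusted p = 3.71e-07). Cd209a, a relative of the human lectin DC-SIGN, fell by 0.66. Ccr6, a chemokine receptor, was at 24.1, 28.7, 24.1 and 28.1 CPM in the C57BL/6 mice and 45.2, 52.8, 53.5 and 59.1 CPM in the B6.SLE123 mice. Every B6.SLE123 mouse was far above every C57BL/6 mouse, and the gene was 2.01-fold higher (adjusted p = 4.49e-06). Tbx21, a transcription factor reported in the Notch2-dependent kind, rose by 0.65.

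Of the remaining genes of this list, Gpr183, a receptor that guides cDC2 to the edge of the white pulp, rose by 0.33, and Ltbr, a receptor these cells need to be maintained, fell by 0.44. Itgam, which encodes CD11b, fell by 0.30. Irf4, a transcription factor of cDC2, was at 99.7, 117, 95.8 and 106 CPM in the C57BL/6 mice and 104, 103, 105 and 127 CPM in the B6.SLE123 mice. The strains overlapped, and the log2 fold change was 0.07 (95% interval -0.11 to 0.24, standard error 0.08, adjusted p = 0.509). The chemokine receptors Cx3cr1 and Ccr2 were not called, at -0.10 and -0.29, although Ccr2 was called lower with DESeq2 (-0.29, adjusted p = 0.04) and, at -0.40, without B6.SLE123 replicate 1 (adjusted p = 0.00912). Clec12a, Cd300a and Itgam are expressed by monocytes or macrophages too. The red pulp macrophage list fell beside them, whereas of 8 monocyte genes 3 were called lower and none higher, at a median of -0.11. The part of those cells was not tested.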

How the data were processed

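RNA of CD11c-positive splenocytes was sequenced for 8 mice, 1 library each, from a kit that keeps the strand. Per the submitters' processing notes, FastQC, cutadapt, STAR, featureCounts and DESeq2 were used with mm10. The authors deposited raw read counts per gene and mouse for 13786 genes; the strand setting of counting is not given in the sources used here. In every gene the larger of the strain medians was at least 5 counts. The table's further columns hold the authors' DESeq2 comparison (mean, log2 fold change, its error, the statistic, p-values and the fold) and were not used. Symbols turned into dates by a spreadsheet were restored for 21 genes.

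Strains were compared with edgeR 4.0.16 (R 4.3.3; TMM factors, quasi-likelihood F test, two-sided, no further filter, Benjamini-Hochberg adjustment over all genes), after the script was tested on simulated data. The standard error is the log2 fold change divided by the square root of F. Log2 CPM used a prior count of 2. FPKM used exon lengths of GENCODE M21, where 13663 genes have the coordinates of the table. Mice of a strain differed by more than sampling noise, so each counted as 1 replicate; nothing says whether mice were littermates or processed together, and p-values measure the spread between these libraries only. Shared stretches were found by matching 50-base stretches of GENCODE M21 transcripts.

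The cDC2 genes and the lists were chosen with earlier results of these data known. Named are every cDC2 gene, the called genes of each Notch list, the 3 most abundant genes of each other list and close copies; some genes counted in the lists are not reported here by name. The remaining genes of the cDC2 list, Itgax, Flt3, Cd3e and the 3 SIRP relatives were named after their values were seen. Alternatives were relative log expression or upper-quartile factors, a minimum of 10 counts per mouse, a block of replicate numbers, DESeq2 1.42.0, limma-voom (limma 3.58.1), another prior count, Flt3 as reference, and each mouse left out in turn.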

Additional observations from a re-analysis of the deposited data

Results flagged for a closer look

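In 10 of 178 groups of 4 mice, 1 mouse lay far from the other 3 on the log2 CPM scale, where chance flags about 1 in 20 groups, or 8.9 here. None of the 20 groups of the 10 cDC2 genes was among them. In the Notch pathway, Jag1 was at 5.32 in C57BL/6 replicate 3 beside a median of 5.51, and Maml3 was at 4.78 in C57BL/6 replicate 1 beside 4.94. Aph1b was at 3.92 in B6.SLE123 replicate 2 beside 4.21, Rfng at 4.53 in B6.SLE123 replicate 3 beside 4.4, and Lfng at 7.59 in B6.SLE123 replicate 4 beside 7.30. Of other cDC2 genes, Relb was at 9.23 beside 9.01 and Irf4 at 6.99 beside 6.71, both in B6.SLE123 replicate 4, and Ccr2 was at 5.96 in C57BL/6 replicate 1 beside 5.69. Of the remaining genes, Flt3 was at 8.75 in C57BL/6 replicate 3 beside 8.90 and Cd1d1 at 7.05 in C57BL/6 replicate 2 beside 7.26.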

How the results depend on the processing

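Of 140 log2 fold changes of the 10 cDC2 genes under 14 alternative settings, 124 had the same direction and call as reported, 4 lost a call, 12 gained one and none reversed. The number of the 10 genes called was 5, 6 with upper-quartile factors, 7 with DESeq2 and 5 with limma-voom, with relative log expression factors or with at least 10 counts in every sample; without each mouse in turn it was 4 to 8. With a replicate block in edgeR it was 9, all but Mgl2. The share of all genes called was 53.4% as reported, 54.0% with upper-quartile factors, 52.3% with DESeq2 and 53.5% with limma-voom. With the block it was 52.1%, with relative log expression factors 53.3% and with at least 10 counts in every sample 56.2%. Without each mouse in turn the share was 47.1% to 50.9%. Mice with the same number did not all deviate together (correlations of their deviations 0.0244, 0.133, -0.0212 and 0.157 for numbers 1 to 4; numbers 2 and 4 alone matched best with their own), and the labels do not say that a number marks a pair. The count of Notch pathway genes was 28, 26 with the block and 24 with upper-quartile factors. The alternative with a prior count of 0.5 left the count of separated ratios at 4. Of 1104 values of 79 other named genes, 1038 stayed as they were, 51 lost a call, 12 gained one and 3 reversed, none of them called: Gp9, at 0.19 on all mice, ranged from -0.30 without B6.SLE123 replicate 2 to 0.55, Irf4, at 0.07, from -0.02 without B6.SLE123 replicate 4 to 0.12, and Cx3cr1, at -0.10, from -0.29 to 0.03 without B6.SLE123 replicate 2. The cause was not tested. Mgl2, with 48 to 134 counts per mouse, is the cDC2 gene whose depth limits it most: its 95% interval of -1.03 to 0.23 includes both no change and a 2-fold fall.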
